A study of Mus musculus with 19 samples.

Results

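The Fanconi anaemia and homologous recombination genes described here are Fanca, Fancc, Fancd2, Fancg, Fanci, Fancl, Fancm, Brca1 and Brca2, 9 of the 19087 genes named on the array. They were taken by symbol: each spot that the platform annotation assigns to 1 of these genes and to no other was used, which gave 20 of 33653 spots. RNA of 19 mouse mammary tumours had been hybridised, 1 tumour per 2-colour oligonucleotide array, against a whole-mouse reference RNA. All tumours were mammary adenocarcinomas of FVB mice with a transgene for the T antigen of Simian virus 40, driven in mammary epithelium by the C3(1) promoter of the rat. T antigen binds p53 and the retinoblastoma protein, so every group, controls included, shares that lesion. The 7 untreated tumours were set against 12 from mice given carboplatin and paclitaxel. Per the labels, 9 treated tumours were non-responders (4 after 2 weeks of treatment and 5 after 3 weeks) and 3 were responders (1 after 2 weeks and 2 after 3 weeks). The sources used here give neither the age of the mice nor the way response was judged. Nor do the labels say whether untreated mice received a vehicle. Nothing states that each tumour came from its own animal, and 1 non-responder and 1 responder share an animal number in their titles, so p-values measure the spread between these tumours.

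Carboplatin is a platinum drug that can tie the strands of DNA together, and such a crosslink stops a replication fork until it is cut out. In the Fanconi pathway, FANCM recognises the stalled fork and anchors a core complex that includes FANCA, FANCC, FANCG and the ubiquitin ligase FANCL. The ligase attaches ubiquitin to the paired proteins FANCD2 and FANCI, which then direct nucleases to the crosslink. The broken strand that results is mended by homologous recombination, where BRCA1 promotes trimming of the break and BRCA2 acts at the step after it. Tumours without BRCA1 or BRCA2 are known for their sensitivity to platinum drugs. Several of these genes are transcribed mainly in dividing cells, in part through E2F factors, which T antigen releases from the retinoblastoma protein.

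Sequence upstream of the genes is shown because E2F-type words are one known link between these genes and the division of the cells. The RefSeq promoter table (GRCm38.p6, 250 bases before to 50 after the start of a gene) held 8 of the 9 genes, Fancd2 being the exception. The words TTTCCCGC, TTTCGCGC, TTTGCCGC and TTTGGCGC were searched on both strands and were present in 744 of 32851 promoters (2.26%). Of the 8 member promoters, 2 held such a word, those of Brca2 and Fancg, and it stands in capitals in each. The Brca2 window is chr5:150522371-150522670 on the + strand with the word 168 bases before the start, and the Fancg window is chr4:43010252-43010551 on the - strand with the word 52 bases before it.
Brca2: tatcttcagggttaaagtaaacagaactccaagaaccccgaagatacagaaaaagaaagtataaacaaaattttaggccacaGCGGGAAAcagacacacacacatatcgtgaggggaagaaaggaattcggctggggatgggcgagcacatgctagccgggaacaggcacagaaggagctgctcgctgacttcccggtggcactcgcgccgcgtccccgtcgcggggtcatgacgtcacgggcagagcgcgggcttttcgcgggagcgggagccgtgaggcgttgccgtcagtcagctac
Fancg: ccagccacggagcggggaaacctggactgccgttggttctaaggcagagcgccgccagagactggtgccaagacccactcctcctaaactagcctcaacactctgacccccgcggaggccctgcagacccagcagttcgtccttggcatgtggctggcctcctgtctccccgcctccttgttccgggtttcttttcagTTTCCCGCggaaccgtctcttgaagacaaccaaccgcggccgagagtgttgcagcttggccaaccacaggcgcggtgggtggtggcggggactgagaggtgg
The word CCAAT, searched on both strands, was in 4 of the 8 promoters (Brca1, Fanca, Fancc and Fancm) and in 37.4% of all promoters. The cell cycle word TTTGAA was in 0 of the 8 and in 17.9% of all promoters. No overlaps between the searched words were looked for, and a word is a description of the letters alone.

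The deposited values are log2 ratios, most likely of tumour over reference, so a value above 0 means more signal from the tumour than from the reference. Neither the log base nor the direction is stated. The values of genes of the liver, an organ of the reference, were strongly negative, with a mean of -4.45 over 6 liver genes in untreated tumours. Of the 380 values of the 20 spots, 13 were listed at exactly 0 and taken as not measured. The 20 spots were each measured on at least 70% of the arrays and all entered the fits. Titles are written with a hyphen before the animal number on 7 arrays (2 untreated, 2 non-responders and all 3 responders) and without one before the animal number on 12, called other titles here. Values within each title style are therefore given beside a result where they bear on it. Mammary epithelial markers lay between 0.47 and 0.94 on every array (mean log2 ratio of 12 genes), so the labelled tissue was there in each group. The mean hides markers that moved apart. In responders against untreated tumours, 6 were below and 6 above 0, with log2 differences from -2.75 to 1.43. Of the 12, 1 was lower at an adjusted p under 0.05 (limma), where 0.0431% of all genes were.

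**Figure D1:**
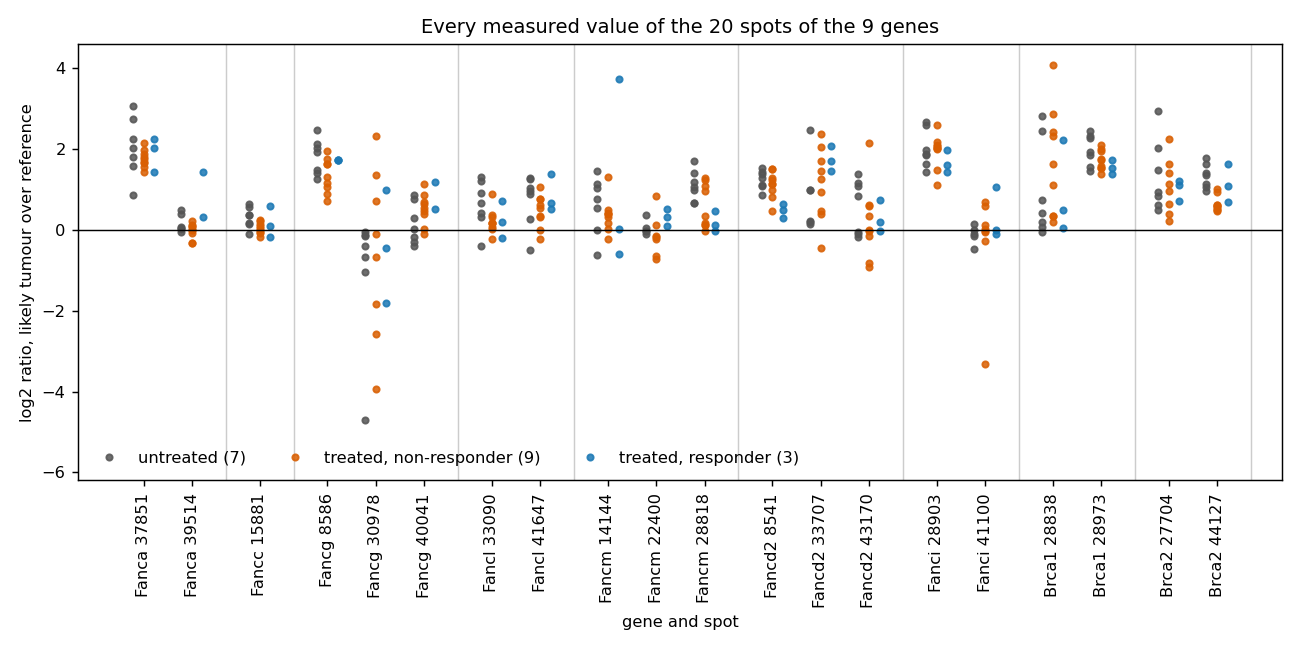
Log2 ratio of each measured array for the 20 spots of the 9 genes, by group, with grey for untreated, orange for treated non-responder and blue for treated responder tumours. Spots of 1 gene often differ in both level and spread: Fanca lies near 2 by spot 37851 and near 0 by spot 39514, and Fancg spot 30978 runs from -4.71 to 2.31.

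Averaged over its spots, each of the 9 genes had a mean above 0 in each of the 3 groups, and none passed the test between any of the groups. Each gene was tested as the mean of its spots with limma across all genes, two-sided, at a Benjamini-Hochberg adjusted p under 0.05. In treated against untreated tumours 0 of 9 members passed, where 3.65% of all genes did (678 of 18553). At an unadjusted p under 0.05 the share was 1 of 9 members and 20% of all genes. The members' median difference was -0.23 (log2), beside 0.026 over all genes, and 7 of 9 members were below 0, as were 47.3% of all genes. Non-responders gave 0 of 9 members where 1.53% of all genes passed against untreated tumours, with 1 of 9 and 17.3% at an unadjusted p under 0.05. Responders gave 0 of 9 members where 0.0755% of all genes passed, with 0 of 9 and 16.1% at an unadjusted p under 0.05. These comparisons share the 7 untreated tumours. Whether fewer cells of a kind or less RNA per cell lies behind a lower level in a bulk tumour cannot be told apart.

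**Figure D2:**
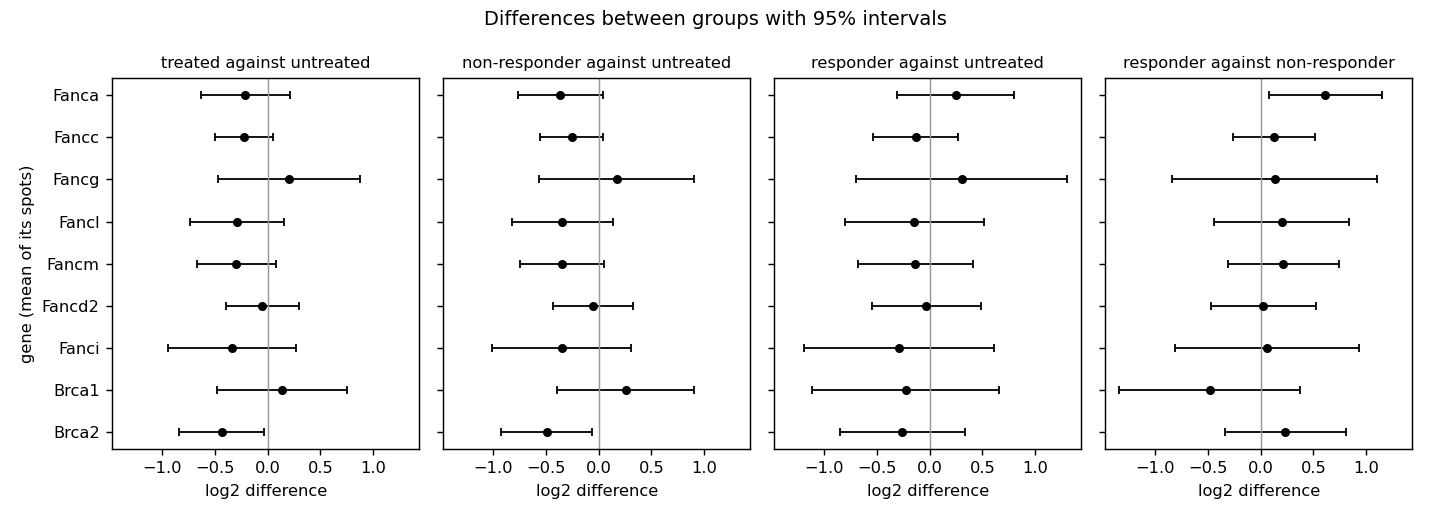
Log2 difference of each gene, as the mean of its spots, between groups of tumours, with 95% intervals from limma (12 treated, 9 non-responder, 3 responder and 7 untreated tumours). The intervals of Brca2 in treated and non-responder against untreated tumours and of Fanca in responders against non-responders lie off 0, and none of the values passed adjustment over all genes.

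Brca2, which acts in homologous recombination after the ends are trimmed, had the smallest p of the members. Its log2 ratios in the untreated tumours ran from 0.74 through a median of 1.18 to 2.0. They were 0.86, 0.40, 0.62, 0.57 and 1.32 in the non-responders after 3 weeks and 0.96, 1.43, 0.67 and 0.72 in those after 2 weeks. The responders stood at 0.90 after 2 weeks and at 1.42 and 0.91 after 3 weeks. The groups overlap, with 10 of 12 treated tumours below the untreated mean and the highest non-responder level under the 3 highest untreated ones. The treated mean was 0.44 ± 0.19 (SE) below the untreated one on the log2 scale (95% interval -0.84 to -0.032), a 1.35-fold lower level, with adjusted p = 0.211 by limma. The exact permutation test over the 19 tumours gave p = 0.0346, two-sided. Non-responders alone differed by -0.49 ± 0.21 (adjusted p = 0.214, limma) and responders by -0.26 ± 0.28 (adjusted p = 0.712, limma). Over the recomputed settings the adjusted p in treated tumours ranged from 0.0362 to 0.713. The lowest came with only the spots measured on every array, which leaves Brca2 with spot 44127 alone (-0.56, and -0.69 with adjusted p = 0.0226 in non-responders). Within title styles the treated difference of Brca2 was -0.83 ± 0.31 in hyphen arrays (5 treated, 2 untreated) and -0.28 ± 0.24 in arrays with other titles (7 treated, 5 untreated).

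The 2 spots of Brca2 did not give the same picture. By spot 44127, chosen for description after its values were seen, the untreated tumours ran from 0.97 through 1.35 to 1.78 and the non-responders from 0.47 through 0.59 to 1.00. The responders stood between 0.68 and 1.62. Of the 9 non-responders, 8 lay below the lowest untreated tumour, a count not made over all spots of the array. When each spot was tested as its own feature, an alternative added after seeing the data, the non-responder difference at this spot was -0.69 ± 0.17. It passed with limma (adjusted p = 0.0468), 1 of 20 member spots where 1.4% of all 32472 spots passed, and the exact permutation p was 0.000262. That call did not hold in arrays with other titles (-0.52, adjusted p = 0.0949, limma), in hyphen arrays (-1.12, adjusted p = 0.756, limma), with quantile normalization (-0.63, adjusted p = 0.0603) or without the arrays of the shared animal number (-0.68, adjusted p = 0.0794). It was also lost in 12 of 19 fits that left out 1 array, with differences of -0.75 to -0.61 and adjusted p of 0.0403 to 0.1. All treated tumours gave -0.56 ± 0.17 at spot 44127 (adjusted p = 0.0668, limma; 0 of 20 member spots and 3.66% of all spots passed). That treated difference did pass with the title style as a fixed term (-0.61, adjusted p = 0.0340, limma) and when spots missing on any array were dropped (-0.56, adjusted p = 0.0419, limma). By spot 27704 the treated difference was -0.27, from 1.33 ± 0.89 (SD, n = 7) in untreated to 1.06 ± 0.58 (SD, n = 11) in treated tumours. That spot's lowest untreated value was 0.50 and its highest 2.94, and 2 of 11 treated tumours lay below that range and 0 above it.

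**Figure D3:**
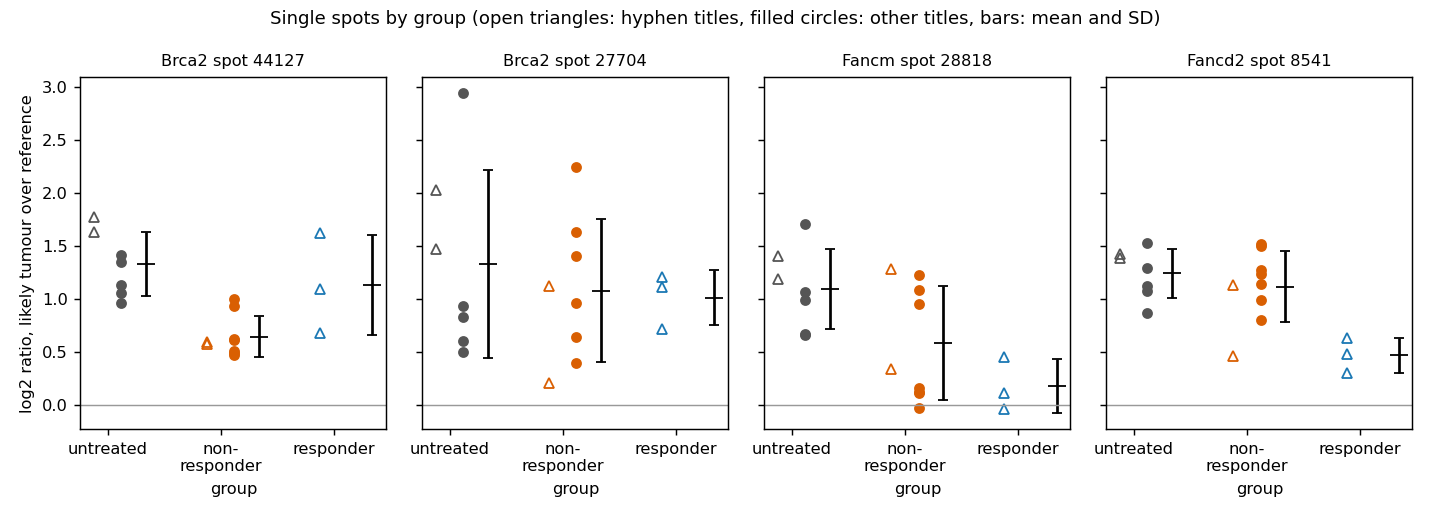
Log2 ratio of each tumour at 4 single spots by group, with open triangles for hyphen and filled circles for other titles and bars for the mean and SD. At Brca2 spot 44127 the non-responders sit at 0.47 to 1.00 and the untreated tumours at 0.97 to 1.78, while at spot 27704 the groups overlap. At Fancm spot 28818 and Fancd2 spot 8541 the 3 responders sit below all 7 untreated tumours. These spots were picked for the smallest p of their gene in these data, and how many of all spots separate likewise was not counted. At the genes' other spots responders differed from untreated tumours by 0.44 and 0.25 (Fancm 14144 and 22400) and by 0.92 and -0.29 (Fancd2 33707 and 43170).

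Fancm, the translocase that anchors the core complex, and Fancc, a core subunit, were the members with the next smallest p. Fancc, measured by 1 spot, ran in untreated tumours from -0.09 through 0.36 to 0.64. Its non-responder levels were 0.22, -0.04, 0.24, -0.089 and 0.15 after 3 weeks and -0.17, 0.093, -0.001 and 0.048 after 2 weeks. The responders stood at 0.10 after 2 weeks and at 0.59 and -0.17 after 3 weeks. All 9 non-responders lay below the untreated mean of Fancc, though the groups overlap. The treated mean was 0.23 ± 0.13 below the untreated one on the log2 scale (adjusted p = 0.357, limma). In non-responders the difference was -0.26 ± 0.14 with adjusted p = 0.363 by limma and an exact permutation p of 0.0219, not adjusted over genes.

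The untreated levels of Fancm ran from 0.20 through 0.67 to 1.05. The non-responders stood at 0.20, 0.083, 0.49, 0.12 and 0.23 after 3 weeks and at 0.24, 0.72, 0.41 and 0.19 after 2 weeks. The responders stood at 0.33 after 2 weeks and at 1.34 and -0.13 after 3 weeks. The groups overlap, the responders hold both the highest and the lowest Fancm level of all tumours, and 10 of 12 treated tumours lay below the untreated mean. The treated difference was -0.30 ± 0.18 (adjusted p = 0.372, limma) and that of non-responders -0.35 ± 0.19 (adjusted p = 0.354, limma; exact permutation p = 0.0196). The high responder value rests on spot 14144, which read 3.73 in that tumour, while the other 11 treated tumours lay between -0.60 and 1.31 there. By spot 28818 the untreated tumours ran from 0.66 through 1.07 to 1.71, the non-responders from -0.024 through 0.35 to 1.28 and the responders from -0.039 to 0.46. At that spot the treated difference was -0.61 ± 0.22 (adjusted p = 0.123, limma). Of the 12 treated tumours, 8 lay below the lowest untreated one, a count not made over all spots of the array. Spot 22400, measured on 15 arrays, gave -0.056. At spot 14144 the treated difference was -0.075 with the tumour at 3.73 and that of non-responders alone was -0.25, and 10 of 12 treated tumours lay below the untreated mean.

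Fancl, the ubiquitin ligase of the core complex, was the member whose spots followed each other. Its untreated levels ran from -0.45 through 0.85 to 1.14. The non-responders stood at 0.57, 0.97, 0.17, 0.40 and 0.27 after 3 weeks and at 0.54, 0.36, 0.031 and -0.21 after 2 weeks. The responders stood at 0.43 after 2 weeks and at 1.05 and 0.15 after 3 weeks. Of the 7 untreated tumours, 1 was the lowest of all 19 for Fancl. The treated difference was -0.29 ± 0.21 (95% interval -0.74 to 0.15, adjusted p = 0.477, limma), with 10 of 12 treated tumours below the untreated mean.

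Fanca and Fancg, further subunits of the core complex, gave no treated difference beyond the spread between tumours. Fanca stood at 1.24 ± 0.57 (SD, n = 7) in untreated and 1.02 ± 0.31 (SD, n = 12) in treated tumours, a difference of -0.21 ± 0.20 (SE; adjusted p = 0.614, limma). Fancg stood at 0.31 ± 0.62 (SD, n = 7) and 0.52 ± 0.76 (SD, n = 12), a difference of 0.20 ± 0.32 (adjusted p = 0.781, limma). The sign of Fancg depends on its spots. By spot 8586, measured on every array, treated tumours stood at 1.44 ± 0.40 (SD, n = 12) beside 1.81 ± 0.44 (SD, n = 7). By spots 30978 and 40041 the treated means were the higher ones, -0.55 beside -1.02 and 0.58 beside 0.15.

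Fancd2 and Fanci, the pair that receives ubiquitin from the core complex, gave no difference between groups beyond the spread between tumours when their spots were averaged. Fancd2 stood at 0.87 ± 0.45 (SD, n = 7) in untreated, 0.82 ± 0.27 (SD, n = 9) in non-responder and 0.84 ± 0.11 (SD, n = 3) in responder tumours. The treated difference of Fancd2 was -0.051 ± 0.167 (95% interval -0.40 to 0.30, adjusted p = 0.902, limma). The spots of Fancd2 ran apart. At spot 8541 the responders read between 0.30 and 0.63, below all 7 untreated tumours (0.87 to 1.53), and 1 of the 9 non-responders fell in the responders' range (0.46). At that spot responders differed by -0.77 ± 0.23 from untreated tumours (adjusted p = 0.107, limma; exact permutation p = 0.00833, the smallest that 120 regroupings can give). The share of all spots that separate likewise was not counted. All 3 responders carry hyphen titles, as do 2 of the 7 untreated tumours, so response and title style cannot be told apart well here. In arrays with other titles, which hold no responder, the treated difference at spot 8541 was 0.033, beside -0.28 over all arrays. At spot 33707 the responders read higher, 1.46 to 2.09 beside 0.16 to 2.47 in 6 untreated tumours.

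Fanci stood at 1.29 ± 0.74 (SD, n = 7) in untreated and 0.95 ± 0.57 (SD, n = 12) in treated tumours, a difference of -0.34 ± 0.29 (adjusted p = 0.562, limma). Its spot 28903 read 2.01 ± 0.47 (SD, n = 7) and 1.88 ± 0.40 (SD, n = 12), while spot 41100 lay near 0 with -0.12 ± 0.23 (SD, n = 5) and -0.11 ± 1.14 (SD, n = 11). On 3 arrays spot 41100 was not measured and Fanci rests on spot 28903 alone, which raises its level there. The highest untreated level, 2.68, is such an array.

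Brca1, which promotes trimming of broken ends and joins BRCA2 to the break, stood at 1.46 ± 0.64 (SD, n = 7) in untreated tumours. It stood at 1.72 ± 0.67 (SD, n = 9) in non-responders and 1.23 ± 0.52 (SD, n = 3) in responders. The treated difference was 0.13 ± 0.30 (95% interval -0.48 to 0.75, adjusted p = 0.848, limma), with 6 of 12 treated tumours on each side of the untreated mean. Its spots lean opposite ways. Spot 28973 read 1.97 ± 0.38 (SD, n = 7) in untreated and 1.68 ± 0.24 (SD, n = 12) in treated tumours, whereas spot 28838 read 0.95 ± 1.18 and 1.51 ± 1.29 (SD, same n). At spot 28838 the values ran from -0.049 to 4.09, so the spread between tumours is far wider there than at spot 28973.

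Responders were compared with non-responders to ask whether these genes differ with response. No gene of the array passed with limma, so the background is 0% of 18553 genes, and 1 of 9 members and 6.33% of all genes had an unadjusted p under 0.05. The members' median difference was 0.13, beside -0.0089 over all genes. The 1 member was Fanca, at 1.73, 1.28 and 1.44 in the responders and from 0.71 through 0.85 to 1.11 in the non-responders. Those ranges do not overlap, though the share of all genes that separate likewise was not counted. Responders stood 0.61 ± 0.26 higher (1.53-fold, adjusted p = 0.722, limma). The exact permutation p was 0.00455, the smallest that 220 regroupings can give, and it restates that the ranges do not overlap. In the responder at 1.44 the lower-reading spot 39514 was not measured, so that level rests on spot 37851 alone, as does that of 1 untreated tumour. With each spot centred over the arrays before averaging, an alternative added after seeing the data, the difference was 0.32 ± 0.25 (adjusted p = 0.916, limma), and it was 0.14 from the complete spot 37851 alone. Over the recomputed settings the adjusted p ranged from 0.716 to 1. Within hyphen arrays, 3 responders stood 0.50 ± 0.32 above 2 non-responders.

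For the other 8 members the intervals between responders and non-responders were wide. Brca1 was lower by 0.48 ± 0.41 in responders (95% interval -1.34 to 0.37, adjusted p = 0.924, limma) and Brca2 was at 0.24 ± 0.27 (95% interval -0.34 to 0.81, adjusted p = 0.953, limma). Fancl, Fancm, Fancg, Fancc, Fanci and Fancd2 lay between 0.026 and 0.22. Among single spots, 3 of 20 had an unadjusted p under 0.05, beside 6.29% of all spots. They were Fancd2 spot 8541 (-0.65 ± 0.22, adjusted p = 0.629, limma), Brca2 spot 44127 (0.48 ± 0.22, adjusted p = 0.758, limma) and Fanca spot 39514 (0.90 ± 0.26 over 2 responders, adjusted p = 0.553, limma). Over the recomputed settings these differences ran from -0.69 to -0.33, from 0.33 to 0.55 and from 0.61 to 0.92, in that order. Skeletal muscle markers were higher in responders by a median of 1.30 over 7 of 7 genes, with mean log2 ratios of -3.22 to -0.77 in responders and -4.33 to -2.01 in non-responders. None of the 7 passed, as no gene of the array did, while 5 of 7 had an unadjusted p under 0.05 (limma), beside 6.33% of all genes. The part of admixed muscle in these differences was not tested.

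By time, no member passed between the weeks or in either week against untreated tumours. Against untreated tumours 0 of 9 members passed after 2 weeks, where 0.501% of all genes did, and 0 of 9 after 3 weeks, where 0.577% did. All 9 members were below 0 after 3 weeks and 6 of 9 after 2 weeks, as were 48.7% and 45.9% of all genes. Brca2 stood at 0.94 ± 0.30 (SD, n = 5) after 2 weeks and 0.87 ± 0.38 (SD, n = 7) after 3 weeks. Fanci stood at 1.24 ± 0.15 (SD, n = 5) and 0.74 ± 0.68 (SD, n = 7), and Brca1 at 1.80 ± 0.44 (SD, n = 5) and 1.45 ± 0.77 (SD, n = 7). Between 3 and 2 weeks no gene passed among the 12 treated tumours (0% of 18624 genes, 4.43% and 0 of 9 members at an unadjusted p under 0.05). None passed among the 9 non-responders either (0% of 18412 genes, 3.63% and 0 of 9 at an unadjusted p under 0.05). Over all treated tumours the member differences of 3 from 2 weeks ran from -0.55 ± 0.42 for Fancg and -0.51 ± 0.31 for Fanci to 0.27 ± 0.22 for Fancl, so those of Fancg and Fanci were larger in size than the treated difference of Brca2. In non-responders the member differences ran from -0.51 ± 0.50 for Fancg to 0.30 ± 0.24 for Fancl. There the spots of Fancg gave -1.14 (30978), -0.23 (40041) and 0.097 (8586). Those of Fanci gave -0.25 (28903) and -1.23 (41100), the latter with 1 tumour at -3.32 after 3 weeks. The time differences of both genes thus rest largely on 1 spot each. Time is crossed with few tumours, since 1 responder was taken after 2 weeks.

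The spots of a gene seldom followed each other from tumour to tumour. Over the 14 pairs of spots of the same gene, the correlation passed adjustment for 1 pair, spots 33090 and 41647 of Fancl. Their Pearson r was 0.771 and their Spearman rho 0.847 over 19 arrays (100000 permutations, adjusted p = 0.00126 and 0.00014). It was 0.863 without the 2 farthest arrays, 0.849 with other titles and 0.771 in hyphen arrays. For the other 13 pairs r lay between -0.44 and 0.36 with adjusted permutation p of at least 0.456, and the 2 spots of Brca2 gave 0.185 over 18 arrays. Between different members, averaged over spots, 21 of 36 pairs had a positive r, with a median of 0.057 and a range of -0.36 to 0.65. A mean over spots is therefore an average of measurements that mostly do not move together, and no spot could be marked as the better one from the files. The sequences of the spots are not analysed here.

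Since several of the members are genes of dividing cells, their levels were set against a score of 21 S phase and mitosis genes in the same tumour, none of them a member. The score is the mean of the genes' log2 ratios, each centred over the arrays. The mean log2 ratio of these genes was 1.38 to 2.0 in untreated, 1.05 to 1.66 in non-responder and 1.13 to 1.37 in responder tumours. Over 9 relations, none passed adjustment. Over all arrays the strongest was that of Brca2 (r = 0.529, adjusted permutation p = 0.178, and rho = 0.563, adjusted p = 0.123, n = 19), with 0.524 without the 2 farthest arrays, 0.752 in hyphen and 0.414 in arrays with other titles. The r of the other members lay between -0.18 and 0.37 over all arrays. Within title styles Fanca gave 0.487 in hyphen arrays and 0.693 in arrays with other titles, above Brca2 in the latter, and the other 7 members ran from -0.66 to 0.60 and from -0.26 to 0.50.

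Single spots were looked at after the gene means had been seen. Of 20 spots, 5 correlated with the score after adjustment over these 20, 1 spot each of Brca1, Fancd2, Fancm, Fanci and Brca2. Only member spots were set against the score. The share of all spots that follow it is therefore not known, and the count cannot be read as particular to these genes. Brca1 spot 28973 gave r = 0.703 and rho = 0.725 (permutation, adjusted p = 0.0116 and 0.0052). Fancd2 spot 8541 gave r = 0.692 and rho = 0.728 (permutation, adjusted p = 0.0116 and 0.0052), and Fancm spot 28818 gave 0.650 and 0.718 (adjusted p = 0.0177 and 0.0052). Fanci spot 28903 gave 0.601 and 0.590 (adjusted p = 0.0339 and 0.0374), and Brca2 spot 44127 gave 0.586 and 0.590 (adjusted p = 0.0345 and 0.0374). Without the 2 farthest arrays r was 0.624, 0.695, 0.817, 0.679 and 0.522 in that order. It was 0.748, 0.438, 0.533, 0.342 and 0.807 in the 12 arrays with other titles, and 0.624, 0.906, 0.812, 0.839 and 0.591 in the 7 hyphen arrays. Among the 12 treated tumours alone r was 0.825, 0.750, 0.70 and 0.896 for the first 4 spots and 0.084 for that of Brca2. The other 15 spots, the remaining spots of these genes included, lay between -0.39 and 0.39 with adjusted permutation p of at least 0.308. Each of these 5 spots was measured on all 19 arrays, and the points share an array and its normalization with the score.

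**Figure D4:**
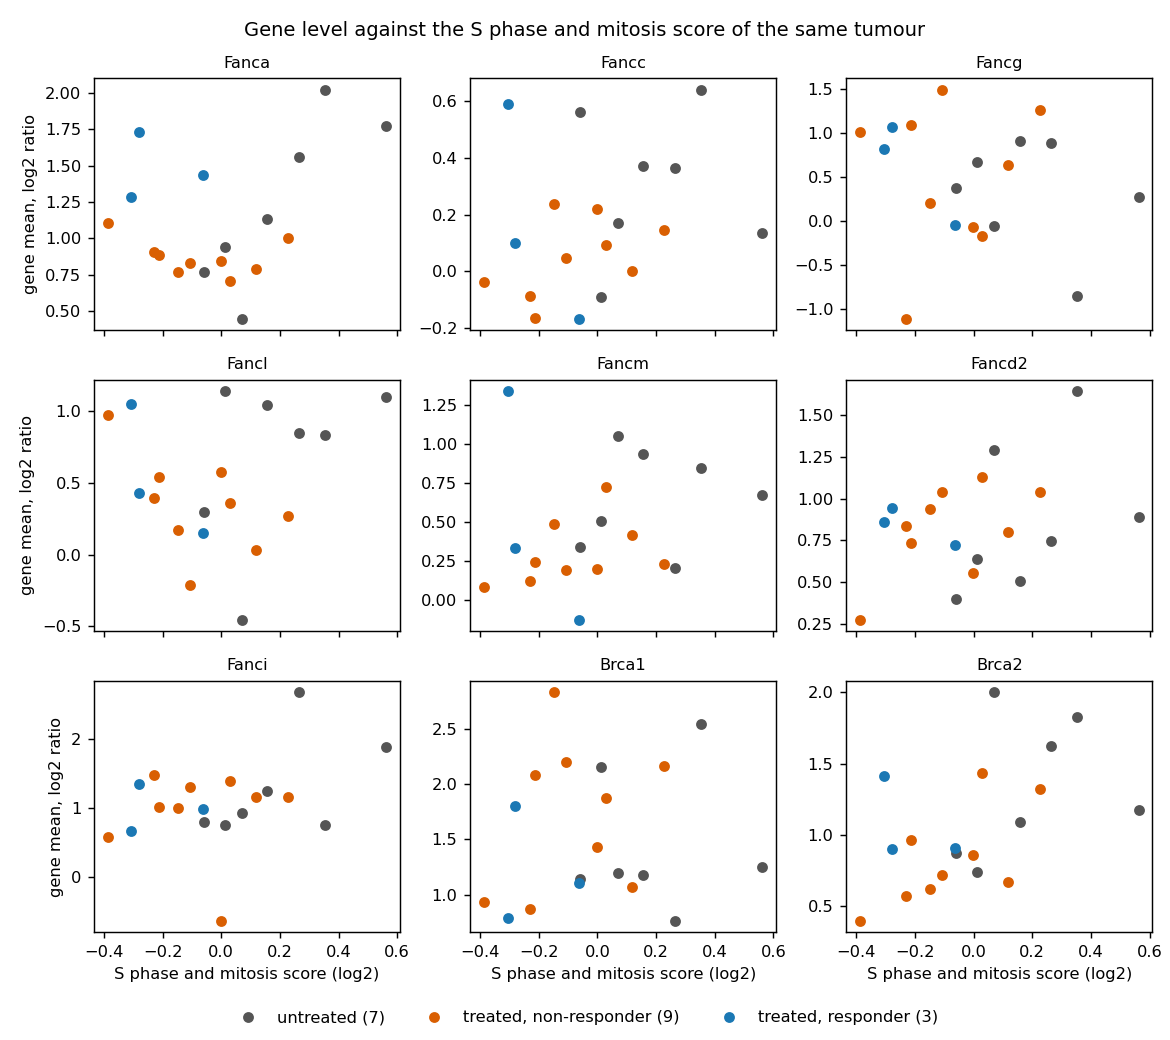
Log2 ratio of each gene, as the mean of its spots, against the S phase and mitosis score of the same tumour, 1 point per tumour in the colour of its group. Brca2 has the strongest relation of the 9 over all arrays (r = 0.529), and untreated tumours in grey reach the highest scores.

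Other genes of crosslink repair were described from lists chosen by function. Among 17 further genes of the Fanconi core complex and its partners, 0 rose and 1 fell in treated tumours, where 2.21% of all genes rose and 1.44% fell. A count of 1 in 17 genes is too small to set apart from that background. At an unadjusted p under 0.05 (limma), in either direction, the share was 7 of 17 and 20% of all genes. The median was -0.12 beside 0.026 over all genes. The gene that fell was Ube2t, the conjugating enzyme that works with FANCL to modify FANCD2 (-0.96 ± 0.20, adjusted p = 0.0146, limma). It did not pass with exact zeros kept as values (-0.36, adjusted p = 0.166), with no spot filter (-0.94, adjusted p = 0.0794) or in hyphen arrays alone (-0.66, adjusted p = 0.641). None of 10 partners of BRCA1 and BRCA2 passed (median -0.017), nor of 12 genes of end resection and signalling (median -0.052), nor of 7 bypass polymerases and helicases (median -0.045). The smallest p in these 3 lists belonged to Babam2, a subunit of the BRCA1-A complex (0.51 ± 0.17, adjusted p = 0.0801), Atrip, the partner of the kinase ATR (0.51 ± 0.15, adjusted p = 0.0571), and Helq, a helicase of crosslink repair (-0.62 ± 0.21, adjusted p = 0.0969). Atrip passed with only spots measured on every array (0.51, adjusted p = 0.0353) and Helq with exact zeros kept (-0.60, adjusted p = 0.0493).

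Of 21 S phase and mitosis genes, 0 rose and 2 fell in treated tumours, where 1.44% of all genes fell. At an unadjusted p under 0.05 (limma), in either direction, it was 12 of 21 and 20% of all genes. The median of the 21 was -0.35, with 15 below and 6 above 0, where 47.3% of all genes lay below 0. Those that fell were the replicative helicase subunits Mcm6 (-0.90 ± 0.17, adjusted p = 0.0102, limma) and Mcm4 (-0.92 ± 0.18, adjusted p = 0.0132, limma). Mcm4 did not pass with exact zeros kept (-0.42, adjusted p = 0.325) or with no spot filter (-0.72, adjusted p = 0.325), and neither passed in hyphen arrays alone. Of 8 macrophage markers 4 rose (Fcgr3, C1qb, C1qa and Lyz2), where 2.21% of all genes did, with a median of 0.71 over the 8. Their mean level was 0.15 to 1.28 in untreated, 0.95 to 2.11 in non-responder and 0.78 to 1.80 in responder tumours. Of 10 target genes of p53, 4 rose (Ei24, Ccng1, Phlda3 and Trp53inp1), beside 2.21% of all genes. All 10 lay above 0, with a median of 0.83. Of 6 endothelial markers 2 rose (median 0.28), and of 12 mammary epithelial markers 2 rose while the median was -0.24, again beside 2.21% of all genes. None passed of 7 skeletal muscle genes (all 7 above 0, median 0.91), 8 fibroblast genes (7 above 0, median 0.71), 8 of T and NK cells (median 0.61), 5 of B and plasma cells (median 0.35) or 5 of adipocytes (median 0.49). The part of dividing cells or of other cell types in the levels of the repair genes was not tested. Between responders and non-responders none of these repair lists held a gene that passed. Usp1, the enzyme that removes ubiquitin from FANCD2, had the smallest p among them (-0.56 ± 0.26, adjusted p = 0.76, limma).

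The genes whose profile was most like the mean of the 9 members, over 19 arrays and 14975 genes measured on all of them, were Epb41l4b (r = 0.786), Kbtbd7 (0.778), Ptma-ps2 (0.752), Kif16b (0.740) and Ildr1 (0.720). The gene most like Brca2 was Zfp748 (0.817), and those most like Fancc, Fancm and Fancl were Ppip5k2 (0.783), Smarcal1 (0.767) and 1700012D14Rik (0.821). These are the highest of many values and describe likeness over these arrays only.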

How the data were processed

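The 9 genes, the gene lists and the tests were chosen with earlier results of these data known. Each deposited value is a ratio of 1 spot on 1 array, taken as log2 from its range. The scanner, the normalization by the authors, the log base and the direction are not stated in the labels. Per the labels, tumour RNA was labelled with Cy5 and the reference with Cy3 on every array. Of 45220 spots, 33653 carried 1 gene, and exact zeros (738 to 4115 per array) were taken as missing. A spot had to be measured on 70% or more of a fit's arrays (32472 spots were), and spots were averaged per gene (18553 genes). The number of arrays limits the precision.

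For differences, limma 3.58.1 (R 4.3.3) was run as lmFit and eBayes with two-sided tests and Benjamini-Hochberg adjustment over all genes at 0.05, in fits of all 19 arrays except for the comparisons of 3 with 2 weeks, with response as a term where both kinds entered. Single spots were tested in the same way, an alternative added after seeing the data, as were spots centred before averaging and the fit without the 2 arrays of the shared animal number. Exact permutation tests used scipy 1.17.1 and numpy 2.4.6 in Python 3.11.15, and correlations used 100000 permutations, or all orders with 8 or fewer arrays. The scripts were tested on simulated data. Each member was described; the 4 with the smallest p in treated against untreated tumours were given tumour by tumour. In the reported repair lists and the S phase and mitosis list, genes that passed in treated tumours were named, and otherwise the gene with the smallest p. The remaining lists were given as counts and medians, with genes named for some of them only. Replicates were numbered in accession order, which pairs nothing. A further list of repair genes is not reported here.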

Additional observations from a re-analysis of the deposited data

Results flagged for a closer look

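In 56 groups of member values, by gene and by spot, 6 held 1 tumour far from the others of its group, where chance flags about 1 group in 20. Fanci was -0.646 in non-responder 1, beside 0.57 in the next lowest of 9 non-responders, and its spot 41100 read -3.32 there, beside -0.27 in the next lowest. That tumour shares its animal number with responder 3. Fancg spot 30978 read -4.71 in untreated tumour 1, beside -1.05 in the next lowest of 7. Fancd2 spot 33707 read 2.47 in the same tumour, beside 0.99 in the next highest of 6. Fancm spot 14144 read 1.31 in non-responder 6, beside 0.50 in the next highest of 9. Fancd2 spot 43170 read 2.15 in non-responder 4, beside 0.61 in the next highest of 9. Averaged over spots, all 3 responders lay above the untreated mean of Fanca and all 9 non-responders below it. For how many of all genes this holds was not counted. All 3 responders carry hyphen titles, and untreated Fanca averaged 1.79 in 2 hyphen arrays and 1.01 in 5 with other titles. Responders differed from untreated tumours in Fanca by -0.31 within hyphen arrays and by -0.070 with the title style as a fixed term. The difference between responders and non-responders was 0.61 (adjusted p = 0.722, limma), which did not pass. Spot 39514, which reads lower, was measured in 2 of 3 responders, so the level of the remaining responder rests on spot 37851 alone. By spot 37851, measured on every array, 1 responder lay above the untreated mean and 2 below it. Of the non-responders, 1 lay above that mean and 8 below it, and responders differed from non-responders by 0.14.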

How the results depend on the processing

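Member genes (spots averaged) were recomputed over 14 settings and with 1 array left out at a time, which gave 1368 values. The exact permutation test is 1 of the settings and has no adjusted p. Of these values, 2 had an adjusted p under 0.05, both of Brca2 with only spots measured on every array. With only spots measured on every array, 1313, 694, 366, 330 and 383 genes passed in treated, non-responder, responder, 2-week and 3-week against untreated tumours. In hyphen arrays alone it was 2, 0, 0, 0 and 2. In arrays with other titles it was 262 for treated tumours and 0 and 0 by week. Non-responders gave 184 and the weeks 46 and 55 with the most variable spot, and 2 weeks gave 49 with quantile normalization. Without the arrays of the shared animal number the counts were 167 for non-responders, 5 for responders, 8 and 0 for the weeks, and 1 for responders against non-responders. Responders gave 39 with exact zeros kept, 47 with robust and trended variance, 3 with the median over spots and 1 with the title style as a term. Leaving out 1 array gave 212 to 1183 genes in treated, 33 to 607 in non-responder, 3 to 396 in responder, 1 to 266 in 2-week and 0 to 368 in 3-week against untreated tumours, and 0 to 12 in responders against non-responders. The lowest treated count was without untreated tumour 4 and the highest without untreated tumour 1. The sign of a difference that had not passed turned in 50 recomputed values, 1 of them of the repair gene Dmc1 and the others of members, and the cause was not tested. With quantile normalization, it turned in responders against non-responders for Fancd2 (-0.011), in 3 against 2 weeks in non-responders for Brca1 (0.12). With the title style as a fixed term, it turned in responders against untreated for Fanca (-0.070) and Fancd2 (0.0079), in responders against non-responders for Fancl (-0.10), in 3 against 2 weeks in non-responders for Fancd2 (0.012) and Brca1 (0.15). In arrays with other titles alone, it turned in treated against untreated for Fancd2 (0.19), Fanci (0.097) and Fancd2 spot 8541 (0.033), in non-responders against untreated for Fancd2 (0.19), Fanci (0.097) and Fancd2 spot 8541 (0.033), in 3 against 2 weeks in non-responders for Fancd2 (0.012) and Brca1 (0.15). In hyphen arrays alone, it turned in treated against untreated for Brca1 (-0.44) and Fanca spot 39514 (0.075), in non-responders against untreated for Brca1 (-0.47), in responders against untreated for Fanca (-0.31), in responders against non-responders for Fancl (-0.23), Brca1 (0.049) and Dmc1 (-0.16). With only spots measured on every array, it turned in treated against untreated for Fancg (-0.38), in non-responders against untreated for Fancg (-0.47), in responders against untreated for Fanca (-0.14) and Fancg (-0.085), in responders against non-responders for Fancd2 (-0.27) and Fanci (-0.28), in 3 against 2 weeks in non-responders for Brca2 (0.021). With the most variable spot per gene, it turned in treated against untreated for Fancd2 (0.45) and Fanci (0.0056), in non-responders against untreated for Fancd2 (0.30), in responders against untreated for Fanca (-0.14), Fancd2 (0.92), Fanci (0.44), Fancl (0.11) and Fancm (0.44), in responders against non-responders for Brca2 (-0.066), in 3 against 2 weeks in non-responders for Fancd2 (0.52). Without the arrays of the shared animal number, it turned in responders against untreated for Fancc (0.039), Fancd2 (0.030), Fancl (0.050) and Fancm (0.19), in responders against non-responders for Fanci (-0.13). With the median over spots, it turned in non-responders against untreated for Fancd2 (0.067), in responders against non-responders for Fancd2 (-0.47), Fancg (-0.027) and Fancm (-0.025). With exact zeros kept, it turned in responders against untreated for Fanci (0.037). With spots centred before averaging, it turned in responders against untreated for Fanci (0.0028). Leaving out 1 array at a time turned the sign in treated against untreated for Fancd2 (-0.13 to 0.078), Fanca spot 39514 (-0.15 to 0.045); in non-responders against untreated for Fancd2 (-0.14 to 0.071), Fancg (-0.025 to 0.37); in responders against untreated for Fancd2 (-0.11 to 0.098), Fancc (-0.34 to 0.039), Fancl (-0.40 to 0.050), Fancm (-0.55 to 0.19); in responders against non-responders for Fancd2 (-0.042 to 0.087), Fancg (-0.095 to 0.46), Fanci (-0.13 to 0.23), Fancc (-0.083 to 0.30), Fancl (-0.055 to 0.39), Fancm (-0.20 to 0.54); in 3 against 2 weeks in non-responders for Brca1 (-0.45 to 0.035). No paired analysis was possible because replicate numbers follow accession order and the labels give none. The animal number as a random term could not be estimated from 1 shared pair. Signal over background is not in the files used here, so what dim spots limit could not be measured.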
